A study of Capra hircus with 6 samples.

Results

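YAP1, WWTR1 (which encodes TAZ), TEAD1, TEAD2, TEAD3, TEAD4, CTGF, CYR61, ANKRD1, and AMOTL2 make up the transcriptional output arm of the Hippo pathway. These 10 genes were chosen by name from the 15944 genes of the deposited count table. CTGF and CYR61, listed there under their older symbols, are also known as CCN2 and CCN1. All 10 were found and all passed the expression filter. The samples were primary secondary hair follicle dermal papilla cells (SHF-DPCs) of wild-type Capra hircus, cultured from scapular skin of 3-year-old Albas cashmere goats and used at passages 4 to 7. The ATRA-treated group (3 libraries) received all-trans retinoic acid, a vitamin A metabolite, at 100 µM for 24 h, and the control group (3 libraries) was cultured without it. At this dose the study reported lower viability, almost no proliferating (EdU-positive) cells, and more apoptotic (TUNEL-positive) cells. The part of these effects in the changes below was not tested. Cells isolated from 3 animals were treated, so the 6 libraries need not stand for 6 animals, but no source ties a control library to the ATRA library of the same number. The labels give a single batch for all libraries.

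The Hippo pathway links cell density, shape, and adhesion to gene expression. A kinase cassette (MST kinases acting on LATS kinases) phosphorylates the coactivators YAP and TAZ, which are then held in the cytoplasm or degraded. Unphosphorylated YAP and TAZ enter the nucleus and bind TEAD factors, which supply the DNA binding, and CTGF, CYR61, ANKRD1, and AMOTL2 are among the genes most widely used as readouts of that complex. In cultured mesenchymal cells spread on a stiff surface, YAP and TAZ are typically nuclear. Counts of transcripts carry no information on phosphorylation or location of either protein.

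Libraries held 35532339 to 38012771 counts. Values below are normalized CPM, that is, counts relative to library totals scaled by edgeR's TMM factors. Those factors were 0.842 to 0.851 for control and 1.16 to 1.20 for ATRA libraries. The log2FC is the ATRA-treated group against the control group, with a standard error (SE) from edgeR's quasi-likelihood test over the 12588 genes tested. "Rose" and "fell" stand for a Benjamini-Hochberg adjusted p under 0.05 over all those genes, and a DEG is a gene past the study's own thresholds (|log2FC| above 1 with an unadjusted p under 0.05). Because these are bulk samples, fewer cells of a type and less RNA per cell cannot be told apart.

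With ATRA, 7 of the 10 genes fell, 1 rose, and 2 did not pass the test. Among all genes tested, 38.7% fell and 40.9% rose. The 7 genes that fell were all DEGs, which makes 70.0% of the 10, against 17.3% of all genes tested. The gene that rose, TEAD2, stayed short of the fold threshold, which 13.7% of all genes passed upward. The control and ATRA libraries did not overlap for 8 of the 10 genes, a share that matches the 80.1% found over all genes. The median log2FC of the 10 genes was -1.24, beside 0.04 over all genes tested.

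**Figure D1:**
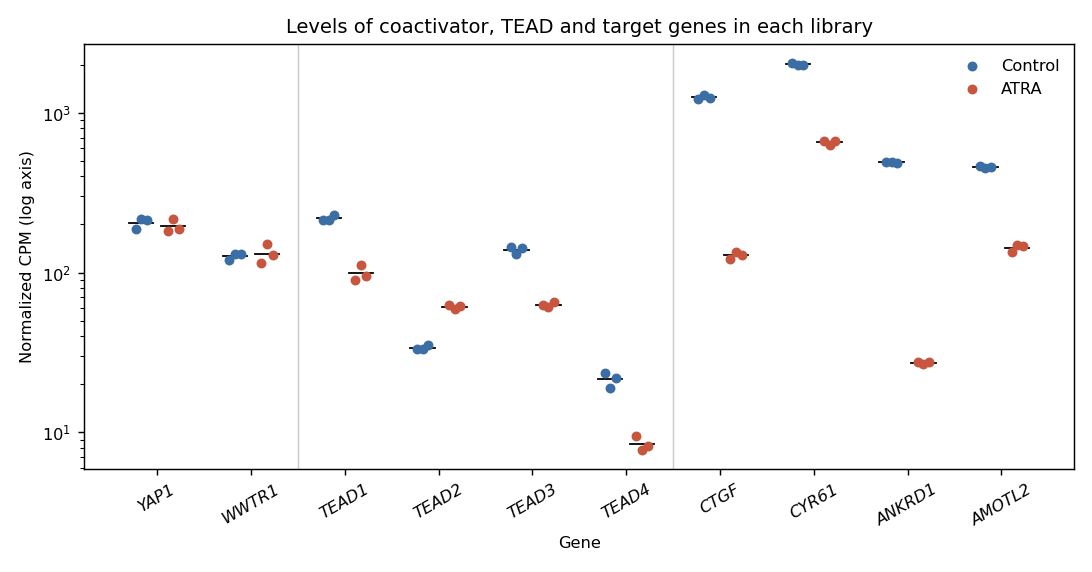
Normalized CPM (log axis) of the 10 genes in each library, with blue points for the 3 control libraries, red points for the 3 ATRA libraries, and a black line at each group mean. The YAP1 and WWTR1 points of the groups overlap, TEAD2 is the only gene with the ATRA libraries on top, and ANKRD1 shows the widest gap, from a mean of 492 to 27.2 CPM.

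YAP1, the coactivator after which the output arm is often named, had 186, 215, and 212 CPM in the control libraries and 182, 217, and 186 CPM in the ATRA libraries. The groups overlapped, with the second ATRA library above every control library. YAP1 had a log2FC of -0.07 (SE 0.0717, 95% interval -0.22 to 0.08, adjusted p = 0.389). Without ATRA replicate 2 it was -0.16 (adjusted p = 0.0117), so that library decided on which side of the threshold YAP1 lay.

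WWTR1, whose product TAZ is the paralog of YAP, had 119.7, 131, and 131 CPM in the control libraries and 114, 150.3, and 128 CPM in the ATRA libraries. Here too the ATRA libraries lay on either side of the control libraries. Its log2FC was 0.04 (SE 0.0805, 95% interval -0.13 to 0.21, adjusted p = 0.655). For both coactivators these intervals exclude a change as large as the smallest fall among the TEAD and target genes.

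The values of the coactivators depended on the scaling, and YAP1 changed sign with it. With library size only, the median log2FC of all genes moved from 0.04 to 0.52, and YAP1 and WWTR1 then stood at 0.41 and 0.52 (adjusted p = 0.000125 and 3.71e-05). Relative to that median, YAP1 was at -0.11 with TMM and -0.10 with library size only, and WWTR1 was at 0.00 with each. WWTR1 therefore sat at the middle of the transcriptome, with 50.1% of the genes tested below it, and YAP1 had 45.3% below it.

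**Figure D2:**
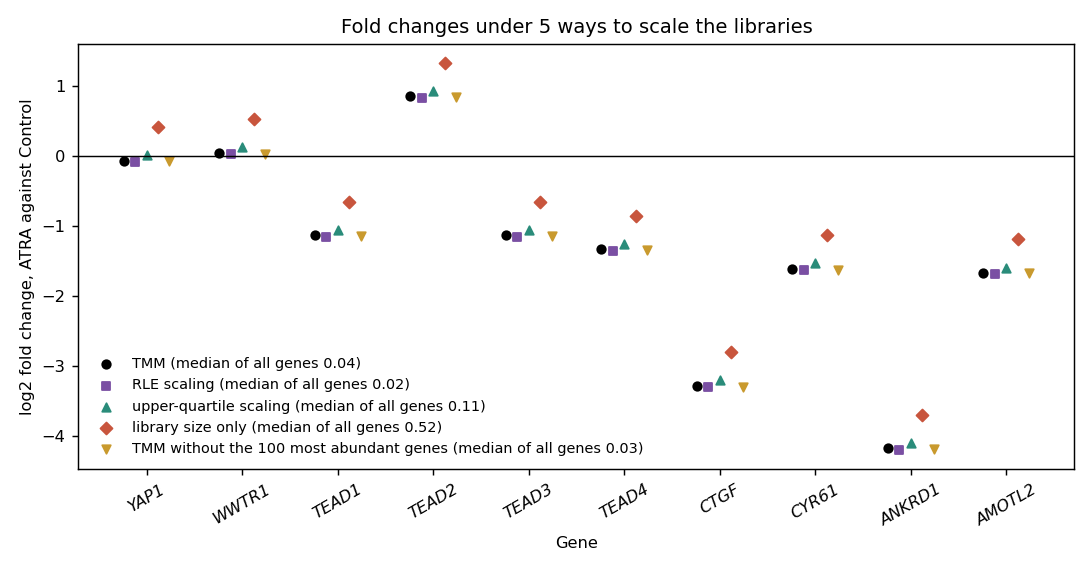
Log2FC of the 10 genes under 5 ways of scaling the libraries, with the median of all genes under each in the key. The 7 genes that fell and TEAD2 keep their direction throughout, whereas YAP1 and WWTR1 move from -0.07 and 0.04 with TMM to 0.41 and 0.52 with library size only.

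The TEAD genes encode the DNA-binding partners of YAP and TAZ. TEAD1 was at 214, 213, and 229.9 CPM in the control libraries and at 90.3, 112, and 95.5 CPM in the ATRA libraries. Every ATRA library was below every control library. TEAD1 fell with a log2FC of -1.14 (SE 0.0715, adjusted p = 4.77e-11), to 0.453 times its control level.

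TEAD3 had 144, 129.7, and 142 CPM in the control group and 62.4, 61.2, and 65.6 CPM with ATRA. It fell by nearly the same amount as TEAD1, with a log2FC of -1.14 (SE 0.0616, adjusted p = 4.88e-12). TEAD4, with the fewest counts of the 10 genes (339 to 733 per library), went from 23.6, 18.9, and 21.9 CPM to 9.49, 7.78, and 8.19 CPM. Its log2FC was -1.34 (SE 0.107, adjusted p = 1.48e-09), and the groups were apart for both genes.

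TEAD2 moved the other way. It had 33.3, 33.4, and 35.1 CPM in the control libraries and 62.9, 58.8, and 61.3 CPM in the ATRA libraries, so every ATRA library was above every control library. The log2FC was 0.85 (SE 0.0660, adjusted p = 1.10e-09), a 1.80-fold rise. All 4 TEAD genes kept these directions and an adjusted p under 0.05 under each of the 16 alternatives tried, although with library size only the log2FC was -0.66 for TEAD1 and TEAD3, -0.86 for TEAD4, and 1.32 for TEAD2.

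Among the counts on the 4 TEAD genes, the share of TEAD2 went from 8.22% ± 0.230 in the control group to 26.3% ± 1.73 with ATRA (SD, n = 3 each). The share of TEAD1 went from 53.0% ± 1.22 to 42.8% ± 3.50, that of TEAD3 from 33.6% ± 0.963 to 27.2% ± 1.52, and that of TEAD4 from 5.19% ± 0.459 to 3.67% ± 0.496. These are shares of counts, not divided by gene length, so only their change between groups can be read. The summed TEAD level went from 413 ± 17.2 to 232 ± 7.49 CPM (SD, n = 3 each), with no overlap between the groups.

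Of the 4 target genes, ANKRD1 changed the most. ANKRD1 encodes an ankyrin repeat protein of the nucleus and the sarcomere. It had 495, 492, and 487 CPM in the control libraries and 27.4, 26.6, and 27.5 CPM in the ATRA libraries, from counts of 15378, 15929, and 15646 down to 1183, 1174, and 1139. The highest library exceeded the lowest by 1.02-fold in the control group and 1.03-fold with ATRA, the tightest replicates of the 10 genes. The log2FC of -4.18 (SE 0.0603, adjusted p = 2.89e-20) is an 18.1-fold lower level. Of all genes tested, 321 (2.55%) had a lower log2FC.

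CTGF encodes a secreted matricellular protein that binds integrins and growth factors and is a widely used marker of fibroblast activation. It had 1225, 1287, and 1234 CPM in the control libraries and 121, 134, and 129 CPM in the ATRA libraries. The groups lay far apart, with at least 38039 counts per library without ATRA and at most 5898 with it. CTGF was 9.76-fold lower with ATRA (log2FC -3.29, SE 0.0635, adjusted p = 1.07e-18).

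CYR61, a matricellular protein of the same CCN family, had 2040.2, 1995, and 1989 CPM in the control group and 663, 627, and 670 CPM with ATRA. It was 3.07-fold lower (log2FC -1.62, SE 0.0576, adjusted p = 7.91e-15) and still held 27660 to 28671 counts per ATRA library. AMOTL2 belongs to the angiomotins, junctional scaffolds that bind YAP and are themselves induced by it. It had 463, 448, and 457 CPM in the control libraries and 134, 149, and 147 CPM in the ATRA libraries, a log2FC of -1.67 (SE 0.0583, adjusted p = 5.87e-15). Neither gene's groups overlapped.

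The 4 targets together took 0.356% ± 0.00288 of all counts across control libraries and 0.112% ± 0.000920 across ATRA libraries (SD, n = 3 each), a share that uses no scaling. Each target fell under all 16 alternatives. The smallest falls came with library size only, at -2.81 for CTGF, -1.14 for CYR61, -3.70 for ANKRD1, and -1.19 for AMOTL2.

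The labelled cell type was checked against its markers, because these moved with the targets. Of 14 dermal papilla and mesenchymal markers, 10 were tested and all 10 fell with ATRA, where 38.7% of all genes fell. Of the 10, 8 were DEGs (80.0%, against 17.3% of all genes downward). The summed level of all 14 was 86947 to 88776 CPM without ATRA and 4609.8 to 4923 CPM with it. Most of the control sum came from COL1A2, COL1A1, and VIM (means of 28514, 27440.1, and 19158 CPM). The log2FC of the 10 tested ranged from -9.62 to -0.44, with a median of -3.73. The markers commonly used to define dermal papilla cells were split. For α-SMA (encoded by ACTA2) and CD133, the study reported positive staining of the purified cells. ACTA2 averaged 6582 ± 462 CPM without ATRA and 8.37 ± 0.829 CPM with it (SD, n = 3 each). VCAN (versican) averaged 1641 ± 63.6 and 32.4 ± 3.11 CPM, and LEF1 16.1 ± 1.63 and 11.1 ± 0.978 CPM. ALPL, CORIN, and PROM1 (which encodes CD133) were at no more than 1 count in every library, and SOX2 was at 0 to 5 counts without ATRA and 9 to 16 with it. The positive CD133 staining thus had next to no counterpart in these RNA counts.

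Summed markers of other cell types were low beside the mesenchymal sum, and each sum was higher in every ATRA library than in any control library. Of those tested, 1 of 1 keratinocyte, 2 of 3 endothelial, 2 of 2 leukocyte, and 1 of 2 melanocyte markers rose, against 40.9% of all genes. Only PMEL fell, where 38.7% of all genes fell. For keratinocytes (7 listed, 1 tested) the summed CPM ranged from 3.11 to 4.98 without ATRA and from 5.37 to 5.97 with it, through KRT10, whereas KRT5 and KRT14 were at 0 to 3 counts with ATRA. The endothelial sum (5 listed, 3 tested, 2 rose) ranged from 0.903 to 1.24 and from 6.19 to 9.16, mostly through PECAM1, which was at 0 in every control library, while CDH5 had at most 1 count and KDR at most 2 with ATRA. The leukocyte sum (4 listed, 2 tested, both rose) ranged from 9.24 to 12.9 and from 41.3 to 44.2, through CD14 and CD68, with CD3E at no more than 5 counts. The melanocyte sum (3 listed, 2 tested) ranged from 16.1 to 17.6 and from 32.2 to 39.0, with MITF up, PMEL down, and TYRP1 at no more than 1 count. The part of any of these shifts in the falls of CTGF, ANKRD1, and the other targets was not tested.

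**Figure D3:**
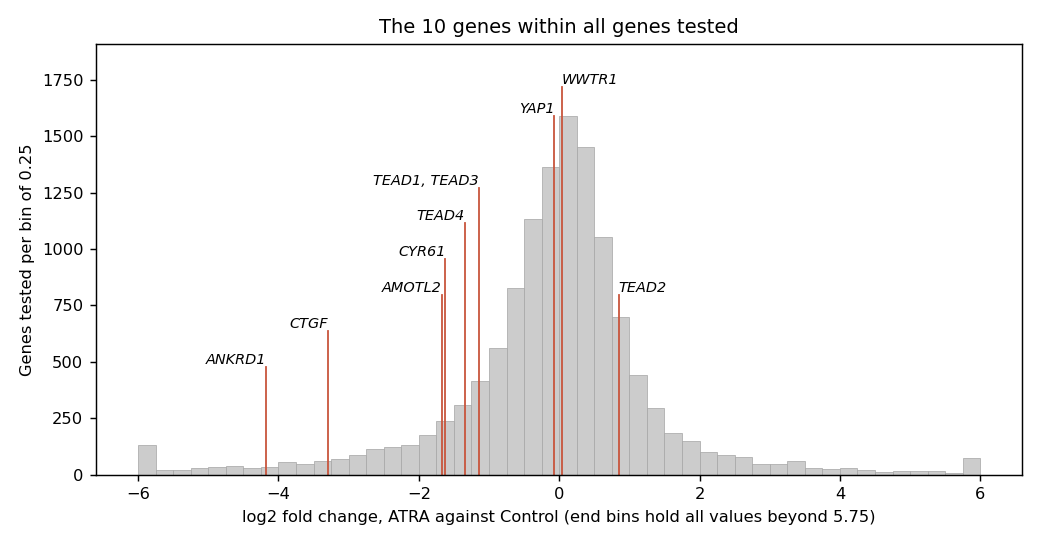
Histogram of the log2FC of the 12588 genes tested (genes per bin of 0.25, end bins holding all values beyond 5.75), with a red line at each of the 10 genes and line heights set only for legibility. YAP1 and WWTR1 lie at the peak of the distribution, TEAD2 lies to its right, and the other 7 genes lie to its left, from TEAD1 and TEAD3 at -1.14 to ANKRD1 at -4.18.

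Ordered by log2FC from the lowest, the genes ran ANKRD1, CTGF, AMOTL2, CYR61, TEAD4, TEAD1, TEAD3, YAP1, WWTR1, and TEAD2. Neighbours in this order were compared as a ratio of counts within each library, with no test, since the order itself was taken from the data. AMOTL2 and CYR61 differed in their change by 0.05 on the log2 scale, TEAD4 and TEAD1 by 0.19, TEAD1 and TEAD3 by 0.01, and YAP1 and WWTR1 by 0.10, and in each of these pairs the ratios of the groups overlapped. The groups were apart for the other 5 neighbouring pairs. The wide steps were those from CTGF to AMOTL2 (1.61), from TEAD3 to YAP1 (1.07), from ANKRD1 to CTGF (0.89), and from WWTR1 to TEAD2 (0.81), while CYR61 and TEAD4 differed by 0.28.

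Because scaling cancels within a library, 5 ratios of related genes were also tested by an exact permutation test (two-sided), in which 3 libraries against 3 cannot give a p below 0.1. Each ratio is a ratio of counts without correction for gene length, and the comparison is of its change. The log2 ratio of CTGF to CYR61 was -0.74, -0.63, and -0.69 in the control libraries and -2.45, -2.23, and -2.38 in the ATRA libraries. Every ATRA library was below every control library (difference -1.67, exact p = 0.1, adjusted p = 0.13 over 5 ratios). The log2 ratio of TEAD1 to the sum of TEAD2, TEAD3, and TEAD4 went from 0.18 ± 0.0704 to -0.42 ± 0.206 (SD, n = 3 each, exact p = 0.1, adjusted p = 0.13).

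For YAP1 to WWTR1 the log2 ratio was 0.64, 0.72, and 0.69 in the control libraries and 0.68, 0.53, and 0.54 in the ATRA libraries. These overlapped (difference -0.10, exact p = 0.2, adjusted p = 0.2). The ratio of counts of LATS1 to LATS2, the kinases that phosphorylate YAP and TAZ, was 0.983 for control and 1.36 for ATRA libraries (log2 difference 0.47, exact p = 0.1, adjusted p = 0.13). That of STK3 to STK4, the MST kinases upstream of them, was 2.02 and 3.18 (log2 difference 0.66, exact p = 0.1, adjusted p = 0.13). In the last pair of ratios every ATRA library was above every control library, which is the most extreme arrangement the design allows.

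**Figure D4:**
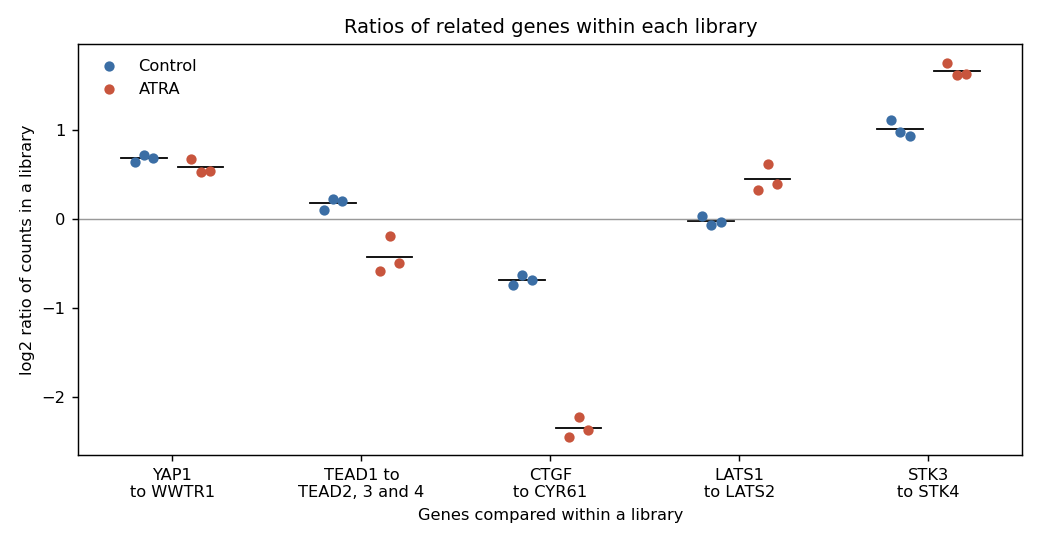
Log2 ratio of counts within each library for 5 comparisons of related genes, with blue points for control libraries, red points for ATRA libraries, and black lines at the group means. The groups overlap for YAP1 to WWTR1 and are apart for the other 4 ratios, most widely for CTGF to CYR61 (means -0.69 and -2.35).

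The other 8 genes were also set against the coactivators in the same library. Since YAP1 and WWTR1 changed little with TMM, these ratios largely restate the log2FC of each gene. This comparison was chosen after the values were seen and carries no test. The log2 ratio of each gene's counts to the summed counts of YAP1 and WWTR1 differed between the groups by -4.15 for ANKRD1, -3.26 for CTGF, -1.64 for AMOTL2, -1.59 for CYR61, -1.31 for TEAD4, -1.12 for TEAD1, -1.11 for TEAD3, and 0.88 for TEAD2. The largest SD within a group was 0.301, for TEAD4 with ATRA. Relative to YAP1 and WWTR1 transcripts, a measure that no scaling of libraries can move, 7 of the 8 were lower with ATRA.

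In the kinase cassette that restrains YAP and TAZ, 3 of the 7 genes fell, 2 rose, 2 did not pass the test, and 0 were DEGs. The share that fell, 42.9%, was near the 38.7% of all genes, and the median log2FC was -0.16. STK3 (MST2) rose from 47.6 ± 0.574 to 71.2 ± 5.30 CPM (log2FC 0.58, SE 0.0673, adjusted p = 2.69e-07), with every ATRA library on top. STK4 (MST1) had a log2FC of -0.07 (adjusted p = 0.468), with overlapping groups.

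SAV1, the adaptor of the MST kinases, fell by 0.44 on the log2 scale (SE 0.0777), and MOB1A, a LATS cofactor, by 0.35 (SE 0.0732). MOB1B, the paralog of MOB1A, had a log2FC of -0.16 (adjusted p = 0.13). LATS2, which is also counted among YAP and TAZ targets, fell from 60.9 ± 4.89 to 50.2 ± 1.78 CPM (log2FC -0.28, SE 0.0701, adjusted p = 0.00142). LATS1 had 59.8 ± 2.69 CPM in the control group and 68.8 ± 9.80 with ATRA, with a log2FC of 0.20 (adjusted p = 0.0345). The LATS1 groups overlapped, and its call was lost without ATRA replicate 2 (log2FC 0.07, adjusted p = 0.294) and without each control library. With library size only, the log2FC of SAV1, MOB1A, and LATS2 turned positive, at 0.04, 0.12, and 0.20.

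Of 31 regulators listed upstream of the kinases, 30 were tested, of which 15 fell (50%, against 38.7% of all genes), 9 rose (30%, against 40.9%), and 6 did not pass the test, with a median log2FC of -0.11. DEGs made up 13.3% downward and 10% upward, below the shares over all genes (17.3% and 13.7%). MAP4K1, at 3 counts or fewer in every library, was not tested. FAT4, an atypical cadherin that acts as a receptor for DCHS1, fell from 238 ± 7.17 to 9.99 ± 0.542 CPM (SD, n = 3 each, log2FC -4.58, SE 0.0692, adjusted p = 4.55e-20). Its ligand DCHS1 rose from 156 ± 6.32 to 298 ± 2.38 CPM (log2FC 0.93, SE 0.0542).

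Among the kinases that can act on LATS in parallel to MST, TNIK rose from 19.6 ± 1.59 to 92.1 ± 5.91 CPM (log2FC 2.23, SE 0.0770) and MAP4K4 from 176 ± 6.85 to 659 ± 7.94 CPM (log2FC 1.90, SE 0.0573). MAP4K2, another kinase of that family, fell with a log2FC of -1.57 (SE 0.171). NF2 encodes merlin, which recruits LATS to the membrane, and it rose with a log2FC of 0.53 (SE 0.0545). FRMD6, a FERM-domain protein, fell with a log2FC of -1.62 (SE 0.0892), and LIMD1, a LIM protein that binds LATS, with -1.05 (SE 0.0922). AMOT, an angiomotin like AMOTL2, was singled out after its values were seen. No control library held a count for it, whereas the ATRA libraries held 21, 15, and 12, at least 3.95-fold higher against a floor of 3 counts per library. AMOTL1, also an angiomotin and also singled out afterwards, fell with a log2FC of -0.78 (SE 0.0604).

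The vestigial-like proteins bind TEAD factors through the surface that YAP uses. VGLL3 averaged 376 ± 16.0 CPM in control and 27.4 ± 5.80 CPM in ATRA libraries, a log2FC of -3.78 (SE 0.112, adjusted p = 1.85e-13), a fall of a size between those of CTGF and ANKRD1. VGLL4, which restrains YAP-TEAD activity, had a log2FC of -0.23 (SE 0.0740, adjusted p = 0.00777), which turned to 0.24 with library size only. VGLL1, with at most 1 count in any library, was not tested.

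A further 18 genes that recur as YAP and TAZ targets across cell types were listed, and 17 were tested. Of these, 15 fell (88.2%, against 38.7% of all genes) and 2 rose (11.8%, against 40.9%). The median log2FC was -1.58, beside 0.04 over all genes, and 9 were DEGs downward (52.9%, against 17.3%). The remaining gene, FOXF2, had at most 1 count in any library. F3 (tissue factor) fell from 52.7 ± 1.24 to 4.30 ± 0.283 CPM (log2FC -3.61, SE 0.0864). CRIM1, a transmembrane protein that binds BMPs, fell with a log2FC of -2.92 (SE 0.0924), GADD45B, a stress-response gene, with -2.56 (SE 0.0798), and AXL, a receptor tyrosine kinase, with -2.50 (SE 0.0629). The genes that rose were TGFB2 (log2FC 1.45, SE 0.0750), the ligand the study followed up, and ASAP1 (log2FC 0.99, SE 0.0647), an Arf GTPase-activating protein. For TGFB2 the study gives a larger log2FC from its own analysis of the sequencing data. It also reports more of the TGFB2 protein and more Smad phosphorylation with ATRA. With library size only, 12 of the 17 fell and 3 rose, where 22.7% of all genes fell and 62.9% rose. Many of these genes, like CTGF, are also induced by TGF-β or by SRF, and the part of either in these changes was not tested.

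**Figure D5:**
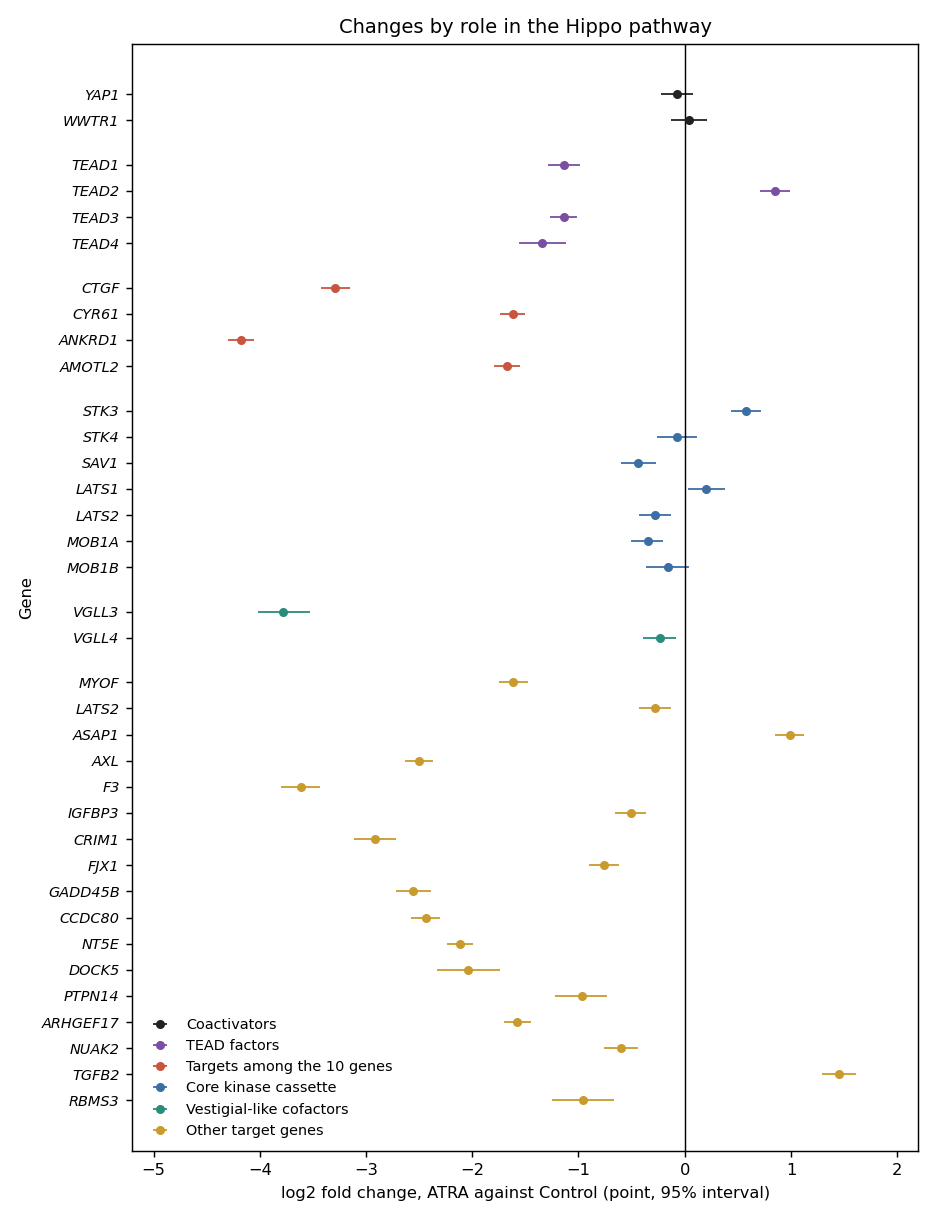
Log2FC of ATRA-treated against control libraries with 95% intervals, by role in the pathway (LATS2 appears under 2 roles). The coactivators and the genes of the core kinase cassette lie between -0.44 and 0.58, whereas the targets among the 10 genes lie between -4.18 and -1.62 and most other targets also lie left of 0.

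The KEGG annotation deposited with the counts, examined after the other lists, places 142 listed genes in the Hippo signaling pathway, a broad map that includes WNT, TGF-β, and cell junction genes. Of its 119 tested genes, 61 fell (51.3%, against 38.7% of all genes) and 37 rose (31.1%, against 40.9%). The median log2FC was -0.29, beside 0.04 over all genes.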

How the data were processed

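Poly(A) RNA of 6 SHF-DPC samples was sequenced, reads were cleaned with fastp and TrimGalore, and the authors deposited whole-number counts of reads per gene, not normalized, in 1 table. The submitters' processing notes name HISAT2, featureCounts, and DESeq2. The build, annotation, and strand setting are not given in the sources used here. Each of the 15944 gene names was found in RefSeq's symbol table.

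Genes were kept by edgeR's filterByExpr (12588 genes), scaled by TMM, and tested with the quasi-likelihood test (robust, two-sided, no covariate) on all 6 libraries, and p-values were Benjamini-Hochberg adjusted across all those genes. The SE of a log2FC is |log2FC| over the square root of F. The study's methods describe cells of separate animals as biological replicates, and p-values measure the spread between these libraries. That spread was small (edgeR's common biological coefficient of variation 0.0669). Whether it includes differences between animals cannot be told from the counts. Ratios within a library used a pseudocount of 0.5. No pair of libraries of a group agreed within sampling noise (chi-square per degree of freedom 5.01 to 18.4). The gene-level tests, but not the permutation test of the ratios, were run on simulated counts. Few genes changed there, equally in each direction, so that simulation does not cover changes as widespread as those seen here. A floor of 3 counts stands for a library at 0 and covers counting error only.

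The 10 genes and the lists were chosen with earlier results of these data known. Named are the 10 genes, the kinase cassette, NF2, the tested vestigial-like genes, and up to 4 genes per direction of the other lists with the largest |log2FC| among those with an adjusted p under 0.05 and a mean of at least 1 CPM in a group. Alternatives tried were other scalings, filters, and a larger prior count, DESeq2, a fit blocked on replicate number, and fits without 1 library each. A further alternative was R's t.test function, which the study names without giving its input values, here on log2(CPM + 1). No goat sequence was used. Versions were R 4.3.3, edgeR 4.0.16, DESeq2 1.42.0, Python 3.11.15, scipy 1.17.1, and matplotlib 3.10.9.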

Additional observations from a re-analysis of the deposited data

How the results depend on the processing

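The 8 called genes among the 10 kept their direction and an adjusted p under 0.05 under all 16 alternatives. Library size only moved most. All genes then gave 7921 higher and 2861 lower with 3390 DEGs higher, and the 10 genes gave 3 higher, 1 DEG higher, and 4 DEGs lower (TEAD1, TEAD3, and TEAD4 fell short of the fold threshold). The kinase cassette gave 5 higher and 0 lower, the upstream regulators 18 and 8, and the vestigial-like genes 1 and 1. Signs turned for YAP1 (0.41), STK4 (0.41), SAV1 (0.04), LATS2 (0.20), MOB1A (0.12), MOB1B (0.32), and VGLL4 (0.24). With upper-quartile scaling, YAP1 (0.01) and STK4 (0.00) turned sign and 1 vestigial-like gene was lower. R's t.test function, run here on log2(CPM + 1), gave 1093 DEGs higher. It also gave 1 higher and 1 lower gene in the kinase cassette, and 1 lower vestigial-like gene. DESeq2 and RLE scaling each gave 1 higher gene in the cassette, where LATS1 lost its call.

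Leaving out each library in turn gave 1 to 2 higher genes in the cassette, 7 to 8 lower genes among the 10 (8 without ATRA replicate 2, where YAP1 was called), and a WWTR1 log2FC from -0.08 to 0.13, negative without Control replicate 1 and without ATRA replicate 2. MOB1B was called only without ATRA replicate 2 (-0.31) among these. The cause was not tested.

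Control and ATRA libraries share replicate numbers, but same-numbered libraries did not deviate together over the genes tested (correlations 0.0892, 0.0299, and -0.0764 for numbers 1 to 3), and not every library correlated best with its own number. With the replicate number as a block, 7 of the 10 genes were lower and 1 higher, over all genes 5123 were higher and 4869 lower, and TEAD1 had a log2FC of -1.15. The block changed no call among the genes named. For the ratios, the mean difference within numbers equals the difference of group means by arithmetic, so it carries no information on pairing. An exact p under 0.25 is out of reach with 3 pairs.

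A planned promoter motif search was not run. AMOT, MAP4K2, and F3 rest on the fewest counts in any library among the Hippo pathway genes whose change is given.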
